A study of Homo sapiens with 22 samples.

Results

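IMR-32 cells come from a neuroblastoma with an amplified N-MYC gene. The regions described here are the places on their genome where WDR5 was called in both libraries and N-MYC was not called in both. WDR5 peaks from the 2 IMR-32 WDR5 libraries were merged where they shared at least 1 bp, and a merged region was kept if both libraries had a peak in it, which gave 993 WDR5 regions. Of these, 431 overlapped an N-MYC region called in both IMR-32 N-MYC libraries and are named cobound, and the other 562 are the sites. The merged peaks of all 16 lists make 25483 regions in the whole series. The sites were then split by CHP-134, a further neuroblastoma line with the same amplification. An N-MYC region called in 2 or more of the 3 DMSO-treated CHP-134 libraries lay at 269 of the sites (47.9%, where all 993 WDR5 regions gave 66.1%) and at none of the other 293. Which sites exist and how they divide was therefore set by the IMR-32 WDR5, IMR-32 N-MYC and CHP-134 DMSO N-MYC lists, and values from those lists describe the sites and test nothing.

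The study mapped N-MYC and WDR5 by chromatin immunoprecipitation and sequencing (ChIP-seq) in both lines, to find where the pair of proteins meets on chromatin. IMR-32 cells were untreated, with 2 libraries per antibody (replicates 1 and 2 for N-MYC, 1 and 3 for WDR5). CHP-134 cells were given DMSO or a compound for 4 h, with 3 libraries per antibody and treatment. The sample labels name the compound in several ways, so it is not identified here. Each library held a pool of 3 ChIPs from identical samples, each line stands for a single cell line, and the study's methods call the ChIP-seq experiments independent, without saying whether cultures were separate, so tests measure the spread between these libraries. Reads were single for CHP-134 and paired for IMR-32, so the line and the sequencing run cannot be told apart. The IgG samples were not analysed here.

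WDR5 is a WD-repeat protein that belongs to the complexes which methylate histone H3 at lysine 4, and it carries separate pockets for a peptide motif of those complexes and for MYC proteins. N-MYC binds DNA as a dimer with MAX and prefers the E-box, written CACGTG. WDR5 has no DNA-binding domain of its own. In cells WDR5 is known for a place at promoters of protein synthesis genes, where it can help bring MYC to chromatin. A site with WDR5 and no N-MYC call is thus a place where the first protein was detected without the second.

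The DNA under some of the sites is shown first, because the letters and the lists are read together further on. The first 3 sequences and the next pair were chosen in order of WDR5 strength where the stretch could be printed. The last 3 were chosen for an E-box and for WDR5 calls with the compound, and not for strength. Each line gives the GRCh37 (hg19) plus strand around the summit of the WDR5 peak, up to 100 bp on each side, with stretches annotated as untranslated left out. Capitals mark CACGTG, the E-box, and GGATGG or its reverse complement CCATCC, a word that was picked out after the data had been examined. The first 3 sequences are sites with N-MYC in CHP-134, at GLO1, which encodes glyoxalase I, and at RPL39 and RPL11, which encode proteins of the large ribosomal subunit. All 3 summits lie in an intron near the promoter.
GLO1 chr6:38670516-38670716: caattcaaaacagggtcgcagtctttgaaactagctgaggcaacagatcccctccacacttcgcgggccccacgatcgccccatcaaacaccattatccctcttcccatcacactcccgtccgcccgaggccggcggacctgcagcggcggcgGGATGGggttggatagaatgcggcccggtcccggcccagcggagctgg
RPL39 chrX:118925364-118925539: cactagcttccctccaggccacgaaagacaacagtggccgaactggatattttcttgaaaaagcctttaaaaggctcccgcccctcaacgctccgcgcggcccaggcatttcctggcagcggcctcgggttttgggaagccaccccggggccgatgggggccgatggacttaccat
RPL11 chr1:24018314-24018445: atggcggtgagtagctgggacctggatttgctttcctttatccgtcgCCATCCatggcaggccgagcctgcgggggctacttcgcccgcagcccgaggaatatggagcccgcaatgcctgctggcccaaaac
The next pair are sites without N-MYC in CHP-134, at RPS4X, which encodes a protein of the small ribosomal subunit, and at the long noncoding RNA gene CTC-338M12.4.
RPS4X chrX:71496853-71497045: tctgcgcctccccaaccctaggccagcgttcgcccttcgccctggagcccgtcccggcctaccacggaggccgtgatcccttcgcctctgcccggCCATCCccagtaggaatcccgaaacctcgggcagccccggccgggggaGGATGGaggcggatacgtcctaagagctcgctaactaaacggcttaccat
CTC-338M12.4 chr5:180673527-180673727: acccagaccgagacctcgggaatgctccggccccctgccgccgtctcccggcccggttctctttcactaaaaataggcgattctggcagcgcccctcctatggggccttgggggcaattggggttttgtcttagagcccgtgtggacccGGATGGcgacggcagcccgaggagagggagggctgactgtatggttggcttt
The last 3 carry an E-box, and WDR5 was still called there in 2 of the compound-treated CHP-134 libraries. AP5Z1 encodes a subunit of the adaptor complex AP-5, ATP6V0D1 a subunit of the proton pump of lysosomes, and MCOLN1 an ion channel of the lysosomal membrane. All 3 summits are annotated as intergenic, next to the TSS (transcription start site) of the gene, and the stretch at MCOLN1 holds CACGTG in 2 places.
AP5Z1 chr7:4815120-4815245: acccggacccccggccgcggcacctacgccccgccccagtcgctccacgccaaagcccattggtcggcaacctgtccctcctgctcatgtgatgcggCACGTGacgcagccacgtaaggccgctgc
ATP6V0D1 chr16:67515085-67515215: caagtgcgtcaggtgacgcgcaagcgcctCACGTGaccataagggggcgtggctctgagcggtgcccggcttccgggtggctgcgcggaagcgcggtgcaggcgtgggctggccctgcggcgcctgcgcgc
MCOLN1 chr19:7587350-7587509: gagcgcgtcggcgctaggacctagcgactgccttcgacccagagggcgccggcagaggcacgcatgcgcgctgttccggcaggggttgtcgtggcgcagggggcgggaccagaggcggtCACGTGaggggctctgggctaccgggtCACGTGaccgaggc

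Within its own lists, WDR5 at the sites ranked near WDR5 at cobound regions. Strength is given as the percentile of a peak's fold enrichment among all peaks of the same list, where 100 is the strongest, because the fold itself depends on each library's background. In IMR-32 WDR5 replicate 1 the median percentile was 69.7 at the sites and 70.9 at cobound regions, and in replicate 3 it was 59.5 and 62.4. The within-library difference was -2.02 ± 1.14 percentile points (sites minus cobound, SD, n = 2). It was 1.93 when the regions came from replicate 3 alone and 0 when they came from replicate 1 alone, so neither order of the classes can be read from these lists. Sites with CHP-134 N-MYC had medians of 72.1 and 62.2, and sites without it 67.2 and 56.6, a difference of 5.23 ± 0.468 points (SD, n = 2). It was 2.05 when CHP-134 DMSO N-MYC replicate 1 was left out, 2.41 without IMR-32 N-MYC replicate 2 and 2.64 where sites with a peak in either IMR-32 N-MYC list were left out, so its size depends on the lists that made the classes. Each kind of site ran from the weakest to the strongest peaks, from a percentile of 3.87 to 99.6 with CHP-134 N-MYC and 1.15 to 96.1 without it in replicate 1. No test over 2 libraries was made, since none could pass a threshold.

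**Figure D1:**
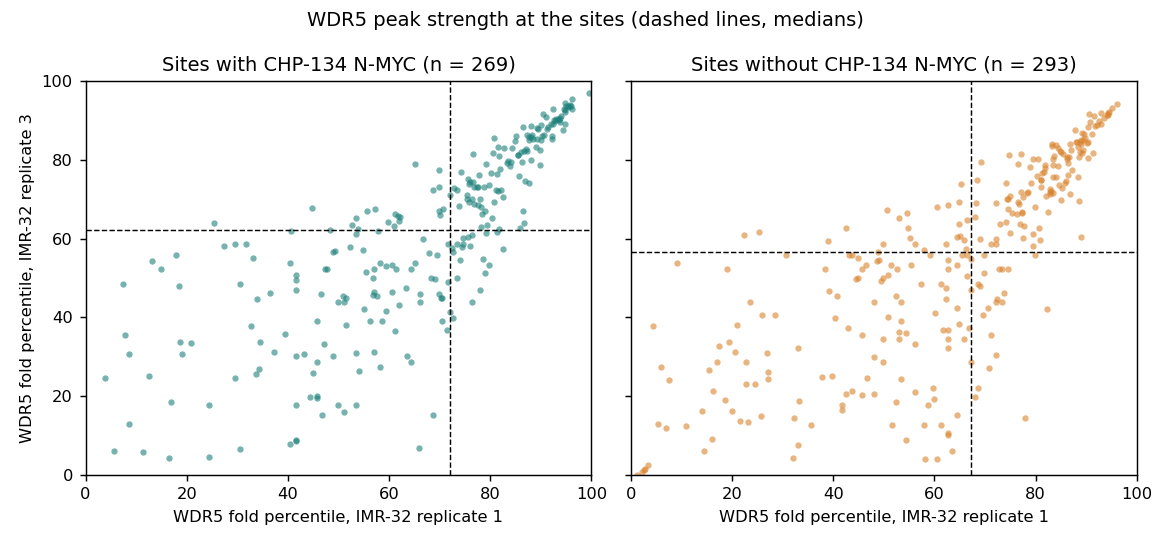
Each point is 1 site, placed by the percentile of its WDR5 fold enrichment in IMR-32 replicate 1 (x axis) and replicate 3 (y axis), for the 269 sites with (left) and the 293 sites without (right) a CHP-134 N-MYC region. Dashed lines are the medians, 72.1 and 62.2 on the left and 67.2 and 56.6 on the right, and both clouds span weak and strong peaks.

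The strongest site of all lay at EEF1G, which encodes elongation factor 1-gamma, with percentiles of 99.6 and 97 in the 2 libraries and authors' folds of 252 and 152. Among the sites with CHP-134 N-MYC, GLO1 followed with 96.2 and 95.4, then RPL39, a ribosomal protein gene, with 96 and 93.7, and RPL11 with 95.7 and 93.8. The other 6 of the 10 strongest sites with CHP-134 N-MYC lay nearest to USP39, NF1, EIF4G3, MGAT4B, BRSK2 and BCL2L1, with mean percentiles of 93.7 to 94.6. BCL2L1 encodes the antiapoptotic protein BCL-XL, and NF1 encodes neurofibromin, a negative regulator of RAS. Among these 10 only BRSK2 lay more than 1 kb from a TSS, at -6800 bp (negative is upstream). All 10 sites had a WDR5 peak in all 3 DMSO-treated CHP-134 libraries. In IMR-32 all of them except EIF4G3 also had an N-MYC peak in 1 of the 2 N-MYC lists.

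The 10 strongest sites without CHP-134 N-MYC had mean percentiles of 91.2 to 95.2. RPS4X led with 96.1 and 94.2, and ACAD11, which encodes an acyl-CoA dehydrogenase, followed with 95 and 93.2. After them came ENSG00000288759, CTC-338M12.4, ST6GALNAC6, SF3B6, PPP2R5C, KCNJ8, GET1 and ENSG00000276744. SF3B6 encodes a splicing factor, PPP2R5C a regulatory subunit of protein phosphatase 2A, and KCNJ8 a potassium channel. All 10 lay within 1 kb of a TSS, and all 10 had a WDR5 peak in all 3 DMSO-treated CHP-134 libraries, although N-MYC was called there in none of them (7 sites) or in 1 (RPS4X, CTC-338M12.4 and ST6GALNAC6). In IMR-32, RPS4X, CTC-338M12.4, ST6GALNAC6 and KCNJ8 had an N-MYC peak in 1 list and the rest of the 10 in none. ACAD11 had no N-MYC peak in DMSO and one in 2 of the compound lists. In all, 6 of the 293 sites had N-MYC in 2 compound lists without a region in DMSO.

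Many sites were close to the limit of an N-MYC call in IMR-32 itself. A peak in 1 of the 2 IMR-32 N-MYC lists was present at 198 of the 562 sites. Over all 993 WDR5 regions 63.3% had one in at least 1 list, and 413 of the 431 cobound regions had one in both lists (the N-MYC region of the other 18 was called in both, but only 1 of the peaks reached the WDR5 region). The longer list, replicate 1 with 8286 peaks, held 168 of the sites, and replicate 2 with 5242 peaks held 30. These single-list peaks were weak, at a median percentile of 39.8 in replicate 1 and 28.8 in replicate 2, against 80.4 and 70.2 for the N-MYC peaks of cobound regions. They were spread unevenly, over 138 of the 269 sites with CHP-134 N-MYC and 60 of the 293 without. The lists carry no read counts, so depth is unknown, and a missing peak means only that none passed the authors' threshold. Asking for no peak in either list left 364 sites.

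Most sites were far from any N-MYC region called in both IMR-32 lists. Peaks of a single list, which lay on 198 of the sites, are left out of this distance. The median gap to the nearest IMR-32 N-MYC region of both lists was 131067.5 bp, 82 sites lay within 10 kb of one and 36 within 1 kb. Just outside the overlap stood MCRIP1 with a gap of 13 bp, ELAVL3 with 14 bp and ARL3 with 59 bp. ELAVL3, which encodes a neuronal RNA-binding protein, had WDR5 percentiles of 69.8 and 77.5. Just inside, among cobound regions, RPS12 overlapped N-MYC by 23 bp, ENSG00000292309 by 35 bp and POLH by 41 bp, whereas the median overlap of cobound regions was 459 bp.

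In CHP-134 the same sites often held WDR5, and more often where N-MYC was called. A CHP-134 DMSO WDR5 region (2 or more of 3 libraries) lay at 302 of the 562 sites, or 53.7%, where all 993 WDR5 regions gave 62.4%. The share was 70.3% at sites with CHP-134 N-MYC, 38.6% at sites without it and 73.8% at cobound regions. Library by library, a WDR5 peak was found at 81%, 66.9% and 60.6% of the sites with CHP-134 N-MYC in DMSO replicates 1, 2 and 3, and at 49.1%, 37.2% and 33.1% of those without. The corresponding figures over all 993 regions were 73.2%, 59.1% and 55.3%. Sites with CHP-134 N-MYC were above sites without it in every library, by 29.7 ± 2.2 percentage points (SD, n = 3, p = 0.25 in a two-sided exact sign-flip permutation test, which with 3 libraries can go no lower). Within 1 kb of a TSS the difference was 23.6 ± 1.48 points (n = 3, exact p = 0.25). All 562 sites together were below cobound regions by 19.6 points in the mean, a difference of -19.6 ± 1.64 (n = 3, exact p = 0.25). For sites with CHP-134 N-MYC the gap to cobound regions was -4.11 ± 2.15 points (n = 3, exact p = 0.25).

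Most CHP-134 WDR5 regions without N-MYC coincided with a site. Of 1646 DMSO WDR5 regions in CHP-134, 209 had no N-MYC region, and 115 of these 209 (55%) overlapped a site while 12 (5.74%) overlapped a cobound region. Of all 1646 regions, 18.3% overlapped a site and 19.4% a cobound region. The 115 are 20.5% of the 562 sites, of which 109 belong to the 293 sites without CHP-134 N-MYC. At the sites where a CHP-134 WDR5 peak was called, it ranked high in its own list, with median percentiles of 83.4, 76.5 and 74.5 in DMSO replicates 1 to 3, against 90.1, 82.7 and 83.4 at cobound regions. Sites with and without CHP-134 N-MYC had nearly the same medians there, 83.7 and 83.1 in replicate 1, 78 and 74.8 in replicate 2 and 75.1 and 74.1 in replicate 3.

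**Figure D2:**
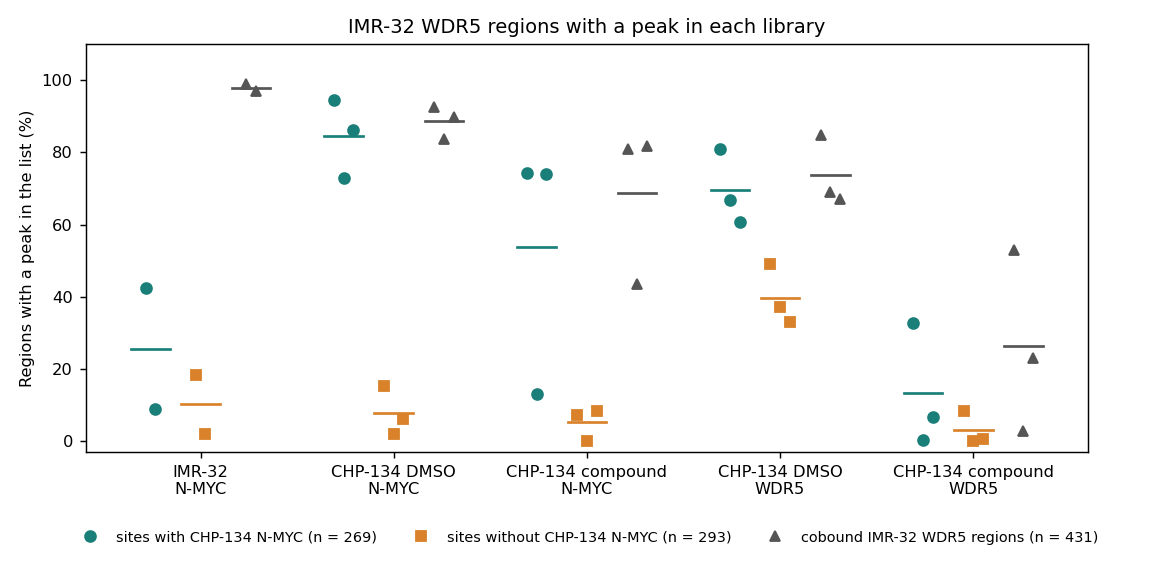
The y axis gives the percentage of regions with a peak in a library, each symbol is 1 library and each short line a mean over libraries. Circles are sites with CHP-134 N-MYC, squares sites without it and triangles cobound regions, and the order of the 3 classes is seen in DMSO WDR5 libraries, at means of 69.5%, 39.8% and 73.6%. The IMR-32 N-MYC and CHP-134 DMSO N-MYC columns were used to choose the classes.

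Most sites were at promoters, and the sites away from promoters were mainly those without N-MYC in both lines. The middle of 438 sites (77.9%) lay within 1 kb of a TSS, compared with 83% of all 993 WDR5 regions. It was 247 of 269 (91.8%) with CHP-134 N-MYC and 191 of 293 (65.2%) without, and 89.6% of cobound regions. The nearest of these starts belonged to a protein-coding gene at 367 sites and to a long noncoding RNA gene at 71. TSSs on both strands lay within 1 kb of 155 sites. Summits sat a little downstream of the start, at a median of 101 bp (quartiles -166 and 251 bp), and cobound summits at 72 bp (-96.2 and 164 bp). By annotation 249 summits fell in introns, 118 between genes, 91 in 5′ untranslated regions, 61 in coding sequence, 40 in noncoding exons and 3 in 3′ untranslated regions.

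**Figure D3:**
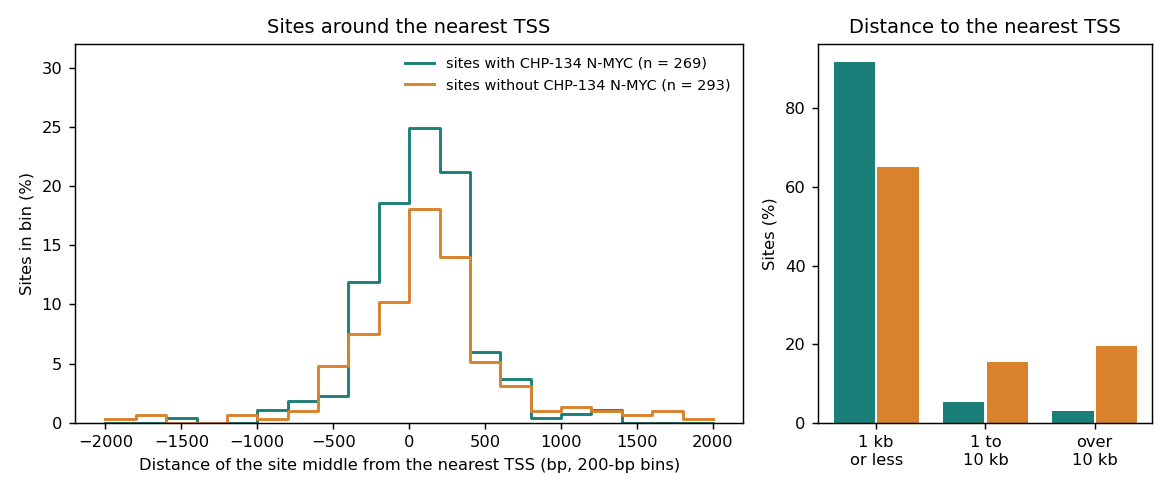
Left, the percentage of sites (y axis) whose middle falls in each 200-bp bin of signed distance from the nearest TSS (x axis, positive downstream), for 269 sites with and 293 sites without CHP-134 N-MYC. Right, bars give the percentage of sites at 1 kb or less, 1 to 10 kb and over 10 kb from a TSS, and 57 of the 65 sites in the last class are sites without CHP-134 N-MYC.

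Of the 124 sites more than 1 kb from a TSS, 102 had no CHP-134 N-MYC region, and the base composition of these differed from that of promoter sites. Vertebrate promoters often lie in CpG islands, where the CG pair is kept at close to the frequency that base composition predicts. The median ratio of observed to expected CG pairs was 0.771 at promoter sites with CHP-134 N-MYC, 0.69 at promoter sites without it and 0.325 at the 102 distal sites without it. The median GC content of the same windows was 63.7%, 60.2% and 53.7%. The 45 distal cobound regions were close to these 102 sites, at 0.348 and 54.2%, so such values are not particular to them. The 22 distal sites with CHP-134 N-MYC had 0.615 and 58.2%. IMR-32 WDR5 had median percentiles of 69 and 58.7 at distal sites and 69.8 and 60 at sites within 1 kb, a difference of 1.03 ± 0.335 points (SD, n = 2). In CHP-134 WDR5 was called at 40.3%, 29% and 25% of distal sites and at 71.2%, 57.8% and 52.3% of sites within 1 kb, in DMSO replicates 1, 2 and 3. This difference of 29 ± 1.83 points was present in every library (n = 3, exact sign-flip p = 0.25, the smallest possible).

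The 5 strongest sites over 10 kb from any TSS differed in CHP-134. At the sites 42627 bp from the TSS of TMEM53 (chr1:45096651-45098325) and 18834 bp from that of ANKRD60 (chr20:56784576-56785173), N-MYC and WDR5 were each called in all 3 DMSO libraries of CHP-134. The site at -16047 bp from UBR2 (chr6:42515258-42516181) had an E-box, with WDR5 in 3 and N-MYC in 2 of those libraries. At the site at -10849 bp from GBX2, a homeobox gene, WDR5 was in 3 and N-MYC in 1. The site in an intron nearest to ENSG00000261710 had IMR-32 WDR5 percentiles of 89.6 and 86.5 and no peak in any CHP-134 list, of either antibody or treatment.

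E-boxes were rare at the sites. CACGTG lay within 100 bp of the summit at 31 of 562 sites (5.52%), where 12.1% of all 993 WDR5 regions held it. The share was 10.4% with CHP-134 N-MYC, 1.02% (3 of 293) without, and 20.6% at cobound regions. Windows of the same length 2 kb away gave 1.42% for the sites, and windows at the TSS of 20163 protein-coding genes gave 5.9%. Of the 31 sites with an E-box, 22 had an N-MYC peak in 1 IMR-32 list, and of the 531 without one, 176 did. The looser pattern CANNTG, which contains the E-box, was at 54.8% of sites, 62.8% of windows 2 kb away and 50% of promoters. Most words known for other factors were no more frequent than at promoters. GGGCGG, bound by SP1, was at 38.3% of sites with and 24.2% without CHP-134 N-MYC, with 50.1% of promoters, and CCAAT, bound by NF-Y, at 12.3% and 19.8% with 25.3% of promoters. Against windows 2 kb away GGGCGG was more frequent, at 31% of all sites with 7.12% of those windows. CCAAT was less frequent, at 16.2% with 24.9%. CCGGAAGT of ETS factors, GCGCATGC of NRF1, TGACGTCA of CRE factors, TGANTCA of AP-1, GCCATNTT of YY1, ACTACAA of ZNF143, the CTCF motif and TATAAA were each at 0.178% to 3.56% of sites, against 1.78% to 6.77% of promoters. CAGCTG, an E-box of proneural factors that CANNTG also covers, was at 13.3% of sites and 13.4% of promoters, and AGATAA of GATA factors at 6.23% and 3.93%, with 11.2% in windows 2 kb away. Both strands were read in each case, and a match or its absence describes only these letters in this window.

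The word with the greatest excess was none of these. Among 2079 words of 6 letters that could be ranked, each counted with its reverse complement, GGATGG stood first at the sites when ranked by its excess over both windows 2 kb away and promoters. It was within 100 bp of the summit at 179 of 562 sites (31.9%), with 10.5% of windows 2 kb away and 10.6% of promoters. The 4 words that came next overlap it in their letters, and the first of them, GGATGC, was at 20.3% of sites. Since it was chosen on these sites it was not tested on them. Each kind of site is a part of the set on which the word was chosen, so its rank there is no separate support. It stood first in each, at 29% of sites with and 34.5% of sites without CHP-134 N-MYC. At the 431 cobound regions, which had no part in choosing it, GGATGG was also first, at 26.7% with 10.4% of windows 2 kb away, and CACGTG was second. At sites within 1 kb of a TSS it was at 32.6%, and at distal sites, where its rank was 3, at 29%. In 4 groups of 140 to 142 sites from strongest to weakest WDR5, it was at 33.6%, 32.9%, 30.7% and 30.3%. The median WDR5 percentiles were 70.6 and 60.9 at sites with the word and 69.1 and 58.7 at the others, in replicates 1 and 3. At cobound regions they were 87.3 and 83.5 with it and 66.5 and 57.5 without.

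Where IMR-32 WDR5 was not called, the word was near its level 2 kb away. It was at 11.1% of 1931 IMR-32 N-MYC regions away from any WDR5 peak, with 12.3% of windows 2 kb from them, and at 11.6% of 6086 such regions in CHP-134, with 12.9%. The first word of both sets was CACGTG, at 42.3% and 29.2%. At the 826 CHP-134 WDR5 regions away from IMR-32 WDR5 peaks, GGATGG was at 13% with 11.5% 2 kb away, and CACGTG was first there too, at 25.2%. In 50-bp bins around the summit of the sites without CHP-134 N-MYC, GGATGG reached 12.3% and 13.3% in the 2 bins just above the summit coordinate and 8.87% just below it. Of the 5 strong sites printed above, GLO1, RPL11 and CTC-338M12.4 show it once each and RPS4X in 2 places, and the stretch at RPL39 does not hold it. These 5 are not a sample of the sites, of which 31.9% hold the word.

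**Figure D4:**
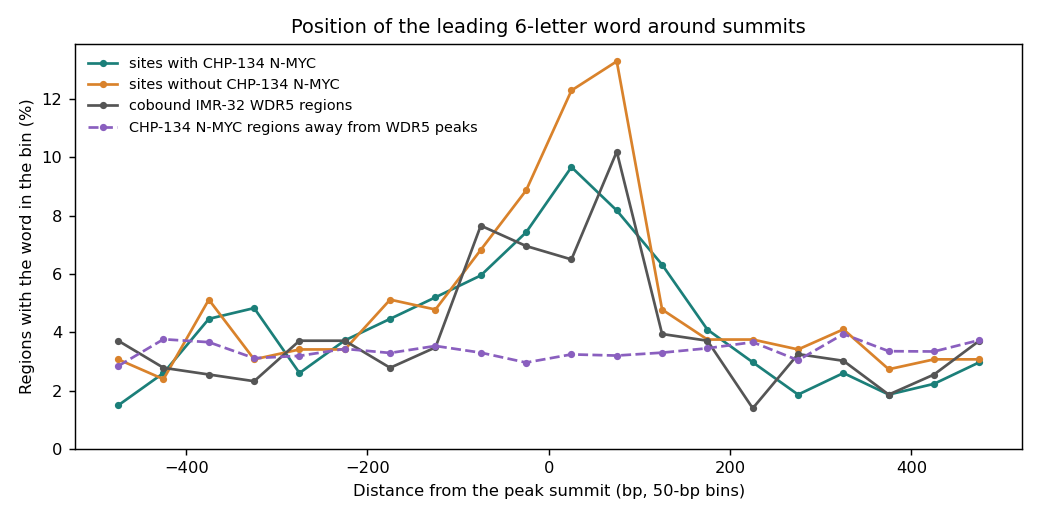
The x axis is the distance from the peak summit in 50-bp bins along the plus strand, and the y axis the percentage of regions with the leading word or its reverse complement in the bin. All 3 classes of IMR-32 WDR5 regions peak near the summit, with up to 13.3% of sites without CHP-134 N-MYC, while CHP-134 N-MYC regions away from WDR5 peaks (dashed) stay between 2.84% and 3.94%.

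With the compound, WDR5 was called at few of the sites. The compound WDR5 lists were very unequal, at 5973, 15 and 401 peaks for replicates 1, 2 and 3, against 4891, 1758 and 1671 in DMSO, and every value here moves with that length. A WDR5 peak was found at 64.4%, 51.4% and 46.3% of the sites in DMSO replicates 1, 2 and 3 and at 20.1%, 0.178% and 3.56% in the compound replicates, where all 993 regions gave 34.3%, 1.31% and 12.1%. The groups did not overlap, at 54 ± 9.35% in DMSO and 7.95 ± 10.7% with the compound (SD, n = 3 each), a difference of -46.1 points (p = 0.1 by exact two-sided permutation, which 3 against 3 cannot go below). Replicate 1, whose list was the longest of the 6, alone gave a difference of -33.9 points. Among the 1671 strongest peaks of each list that had so many, the sites were at 43.1%, 50% and 46.3% in DMSO and 6.58% in compound replicate 1, and cobound regions at 64.5%, 67.1%, 67.1% and 23%.

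In percentage points the difference was alike at cobound regions, -47.3 (n = 3 each, exact permutation p = 0.1), but relative to cobound regions the sites stood lower with the compound. The share of sites was 0.761, 0.744 and 0.69 times the share of cobound regions in the 3 DMSO lists and 0.38, 0.0639 and 0.153 times in the compound lists, without overlap (difference -0.532, n = 3 each, exact permutation p = 0.1). Of the 213 sites in all 3 DMSO lists, 62 (29.1%), 1 (0.469%) and 17 (7.98%) were in compound replicates 1, 2 and 3, and of the 259 such cobound regions 169 (65.3%), 12 (4.63%) and 85 (32.8%). These subsets were not matched in strength. Their median WDR5 percentiles in DMSO replicates 1, 2 and 3 were 93, 83.1 and 79.1 at the sites and 95.3, 86.1 and 86.5 at cobound regions. The part of strength in this was not tested. The sites without CHP-134 N-MYC were lowest, at 8.53%, 0% and 0.683% of 293, with 32.7%, 0.372% and 6.69% of the 269 with it. Mean shares in DMSO and with the compound were 39.8% and 3.07% without CHP-134 N-MYC and 69.5% and 13.3% with it. The differences from these unlike DMSO levels were -36.7 points without and -56.3 with CHP-134 N-MYC. Neither kind overlapped between treatments (n = 3 each, exact permutation p = 0.1 for both).

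Sites with an E-box had higher shares with the compound than the others, by an amount that no test here could separate from the spread. With the compound, WDR5 was at 45.2%, 3.23% and 29% of the 31 sites with CACGTG in replicates 1, 2 and 3 and at 18.6%, 0% and 2.07% of the 531 sites without it, although in DMSO the shares were 61.3%, 61.3% and 58.1% against 64.6%, 50.8% and 45.6%. The difference between sites with and without an E-box was 18.9 ± 13.6 points with the compound (SD, n = 3, exact sign-flip p = 0.25) and 6.54 ± 8.59 in DMSO (n = 3, exact p = 0.5), and the change between treatments was 12.4 points (3 against 3, exact permutation p = 0.3). Among the 269 sites with CHP-134 N-MYC alone, where E-box sites were behind in DMSO by -7.17 ± 10.3 points and ahead with the compound by 15.8 ± 12.4, the change was 22.9 points (3 against 3, exact permutation p = 0.1). Cobound regions showed the same order, at 80.9%, 7.87% and 57.3% with an E-box and 45.6%, 1.46% and 14.3% without (change of 23.3 points, exact permutation p = 0.2, 3 against 3). The comparison was made after the data had been examined. For GGATGG the compound shares were 16.8%, 0% and 1.12% of the 179 sites with it and 21.7%, 0.261% and 4.7% of the 383 without.

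WDR5 was called in 2 or 3 compound lists at 15 sites. All 15 had CHP-134 N-MYC, 14 were within 1 kb of a TSS, and 9 carried an E-box, against 5 of the 103 sites in 1 compound list and 17 of the 444 in none. ALG1, which encodes a mannosyltransferase of N-glycan synthesis, was the only site in all 3. The other 8 with an E-box lay at AP5Z1, ATP6V0D1, HAGH, HOXC13, MCOLN1, MFSD1, VPS50 and ENSG00000290460. HAGH encodes glyoxalase II, MFSD1 a lysosomal transporter, VPS50 a subunit of an endosomal recycling complex and HOXC13 a homeobox factor. The 6 without an E-box lay at BCL2L1, DMAC2L, EIF4G3, PLPPR1, TMEM53 and ENSG00000242588. These 15 were chosen by their values, so no test was made of what they share.

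The N-MYC shares of the treatments overlapped at the sites, and at cobound regions they did not. The shares with an N-MYC peak were 53.2%, 35.9% and 44.5% in DMSO and 39.3%, 6.23% and 39.9% with the compound, for all 993 regions 70.3%, 56.7% and 64.1% and then 57.4%, 22.5% and 58%. The low value came from compound replicate 2, a list of 2964 peaks where the other N-MYC lists of CHP-134 held 9125 to 15286. The groups overlapped, at 44.5 ± 8.63% and 28.5 ± 19.3% (SD, n = 3 each), and the difference of -16.1 points had p = 0.3 in the exact permutation test. Paired by replicate number, the compound library was lower in 3 of 3 pairs (n = 3, exact sign-flip p = 0.25, the smallest possible). Without compound replicate 2 it was -4.95 points. The compound N-MYC libraries, which had no part in the choice, showed the same order, at 74.3%, 13% and 74% of sites with a DMSO region and 7.17%, 0% and 8.53% of those without, a difference of 48.5 ± 30.8 points (SD, n = 3, exact sign-flip p = 0.25, the smallest possible). Of the 158 sites with N-MYC in all 3 DMSO lists, 135 (85.4%), 34 (21.5%) and 139 (88%) had it in compound replicates 1, 2 and 3, and of the 356 such cobound regions 316 (88.8%), 188 (52.8%) and 323 (90.7%). Over all cobound regions the N-MYC shares were 92.6%, 83.8% and 89.8% in DMSO and 81%, 43.6% and 81.7% with the compound, without overlap. That difference was -20 points (n = 3 each, exact permutation p = 0.1, the smallest possible). Set directly against each other, the 2 classes were not told apart. The share of sites was 0.575, 0.429 and 0.495 times the share of cobound regions in DMSO and 0.486, 0.143 and 0.488 times with the compound. These ratios overlapped (difference -0.128, n = 3 each, exact permutation p = 0.4).

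The sites and the cobound regions drew on different shares of some gene groups. A TSS within 1 kb of a site was found for 618 of 38820 genes (1.59%), 472 of them protein-coding, and within 1 kb of a cobound region for 585. Of 88 cytosolic ribosomal protein genes, 46 were at cobound regions and 5 at sites, namely RPL39, RPL11, RPL19 and RPS4Y1 with CHP-134 N-MYC and RPS4X without it. RPL19 had a mean WDR5 percentile of 77, with N-MYC in all 3 DMSO and all 3 compound lists of CHP-134. All 5 had an N-MYC peak in 1 of the 2 IMR-32 lists. Translation initiation and elongation factors were evenly placed, with 7 of 78 at sites and 7 at cobound regions. EEF1G, EIF4G3, EIF3M, EIF4E2, EIF4H and EEF1AKMT1, a methyltransferase gene of elongation factor 1 that the list holds, had CHP-134 N-MYC, and EIF2S1, the alpha subunit of initiation factor 2, had none. Its site was weak, with a mean percentile of 36.4, and had no WDR5 or N-MYC peak in any CHP-134 list.

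Other fixed lists are given by count, where 472 of 20147 protein-coding genes (2.34%) were at sites. Splicing factors and RNA-binding proteins had 7 of 110 genes at sites (15 at cobound regions), with SF3B6 at a mean percentile of 92.7 and PRPF38B at 84.7 the strongest. RNA helicases had 2 of 54, DDX19B and DDX17, with 12 at cobound regions, and small nucleolar RNA host genes had 1 of 29, SNHG11, with 8. Mitochondrial ribosomal proteins had 4 of 78 (MRPS9, MRPL47, MRPS17 and MRPL9), 3 of them without CHP-134 N-MYC, and 2 at cobound regions. Subunits of oxidative phosphorylation had 3 of 93, where NDUFB5 shares the divergent promoter of MRPL47, with 1 at cobound regions. Proteasome genes had 3 of 48, PSMG4, PSMB4 and PSMB1, with 1 at cobound regions. Heat shock proteins and cochaperones had 2 of 72, HSPA4 and DNAJC13, with 3 at cobound regions.

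Zinc finger protein genes, many of which lie in clusters on chromosome 19, had 16 of 539 at sites (2.97%, with 2.34% of all protein-coding genes) and 9 at cobound regions. Of the 16, 10 had no CHP-134 N-MYC. ZNF768 had a mean percentile of 91, ZNF18 90.7 and ZNF585A 90.2, each with WDR5 in all 3 DMSO lists of CHP-134. ZNF665, ZNF578 and ZNF610 had percentiles of 79, 74.7 and 54.4 and no peak in any CHP-134 list. Cell cycle and replication genes had 3 of 50 (6%), E2F2, GMNN and CDK2, with 5 at cobound regions. DNA repair had 1 of 58, ERCC4, at a percentile of 91.1, with 3 at cobound regions. The p53 and apoptosis list had 2 of 20, the same number as at cobound regions, and the 2 at sites are both antiapoptotic. Of these BCL2L1 had WDR5 in 3 DMSO and 2 compound lists with N-MYC in CHP-134, and BCL2 had a percentile of 64.9, no N-MYC and WDR5 in 1 DMSO list. HOX genes had 1 of 39, HOXC13, and neuronal and catecholamine genes 1 of 24, ELAVL3, with none of either list at cobound regions. None of the 64 replication-dependent histone genes, 18 genes of the MLL and SET1 complexes or 20 adrenergic neuroblastoma transcription factors had a site. Cobound regions were similar, with 0, 1 and 1 of these genes. The counts describe lists that were chosen with earlier results known, and no test was made of them.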

How the data were processed

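N-MYC and WDR5 ChIP-seq peak lists from 16 libraries of CHP-134 and IMR-32 cells were used. The authors used Cutadapt for trimming, Bowtie2 for alignment to hg19 and, library by library, MACS2 for peaks at a q-value of 0.05. The control library and program versions are not given in the sources used here. Each deposited list gives position, summit, fold enrichment (a linear ratio), −log10 p-value, −log10 q-value and a score, of which the score and p-value were not used. The lists hold no read counts, so depth is unknown.

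Groups came from the sample labels. Regions were merged at 1 bp as the report describes, and the summit was that of the IMR-32 WDR5 peak with the lowest q-value. TSSs were those of basic transcripts of protein-coding and lncRNA genes (GENCODE 44 lifted to GRCh37), and a site is named after the gene with the nearest TSS. Sequence came from GRCh37, by pysam 0.24.0. Shares of regions were compared between libraries with exact permutation tests (3 against 3) or exact sign-flip tests of within-library differences, two-sided, without adjustment, since none could pass 0.05. Alternatives were a q-value of 0.01, overlap of 0.5 of the smaller region, other rules for N-MYC absence or presence, other TSS and word windows, means, a replicate block and leaving out each library. Pairing by replicate number was checked by the correlation of deviations from group means over all 993 IMR-32 WDR5 regions. Same-numbered DMSO and compound N-MYC libraries gave 0.199, 0.135 and 0.165, and WDR5 libraries 0.0694, 0.0385 and 0.0507, so numbers were taken to pair N-MYC only, from the data and not the labels. Overlap, tests and word counts were tested on simulated data.

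Named sites were the 10 strongest with and without CHP-134 N-MYC, the 3 nearest to the overlap limit on each side, the 5 strongest over 10 kb from a TSS and genes of 18 fixed lists. Members, lists and rules were chosen with earlier results of these data known. The 6-letter words, the E-box split of WDR5 with the compound and the 15 sites in 2 or 3 compound lists were added after the data had been examined. The sequences of 2 strong sites are not reported here.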

Additional observations from a re-analysis of the deposited data

How the results depend on the processing

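Of 133 values under other settings 97 were classed as like the main value. For a tested difference this means only the same direction, and for the number of sites a value within 1.5 times of the main one. No tested difference changed sign. The count of 562 sites was 364 when a peak in either IMR-32 N-MYC list counted as presence, and 399 to 1015 when an IMR-32 library was left out, the highest without WDR5 replicate 3. The share with a CHP-134 N-MYC region was 42% with overlap of 0.5 of the smaller region, 36% with no peak in either IMR-32 N-MYC list, 60% when 1 library sufficed, 32.6% when all 3 were needed and 32.7% to 47.3% with a library left out. Leaving out a library also changed the rule. An IMR-32 region then needed only the 1 library left, and a CHP-134 N-MYC region needed both of the remaining libraries. These ranges therefore mix the library with the rule. The share within 1 kb of a TSS was 67.8% at 500 bp, 82.2% at 2 kb and 72.1% for protein-coding genes only. The E-box share was 3.02% within 50 bp, 10.7% within 250 bp, 2.47% with no peak in either IMR-32 N-MYC list and 3.51% to 5.62% with a library left out, the lowest without IMR-32 N-MYC replicate 2.

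The WDR5 percentile of sites minus cobound regions was -4.12 with overlap of 0.5, -5.46 with no peak in either N-MYC list, -0.76 with means, and -4.54 to 1.93 with a library left out (1.93 without WDR5 replicate 1, 0 without WDR5 replicate 3, -3.52 and -4.54 without N-MYC replicates 1 and 2), so its sign was not stable. For sites with minus without CHP-134 N-MYC it was 3.15 and 2.64 in the first pair of settings, 6.43 and 3.59 when 1 or all 3 libraries defined the N-MYC region, 4.73 within 1 kb of a TSS and 2.05 to 6.05 with a library left out (2.05 and 3.3 without CHP-134 DMSO N-MYC replicates 1 and 3, 2.41 without IMR-32 N-MYC replicate 2). The WDR5 difference between compound and DMSO was -52.2 to -30.8 points with a library left out, -39.9 among the 1671 strongest peaks and -33.9 with compound replicate 1 alone, and the N-MYC difference was -21.8 to -4.95, the latter without compound N-MYC replicate 2. The replicate block left both at -46.1 and -16.1, with an exact sign-flip p = 0.25 each (n = 3), the smallest possible, and changed no call. The causes were not tested. No depth could be given, the line and the sequencing run cannot be told apart, and with 2 or 3 libraries a group no test here could pass 0.05.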
